A study of Mus musculus with 6 samples.

Results

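Cytochrome P450 genes were followed in neural crest cells sorted from the branchial arches of mouse embryos, the embryonic swellings from which jaw, middle ear and throat arise. Members were all genes in the count table whose symbol is Cyp followed by a family number, a subfamily letter and a gene number, with the retinoic acid enzymes of family 26 left out. This gave 90 genes of the 21006 in the table, spread over 15 families. The 3 DKO (double knockout) libraries came from embryos that were Ehmt1f/f and Ehmt2f/f, and the 3 control libraries from embryos that were Ehmt1+/+ and Ehmt2+/+. All embryos were at E11.5, and both groups carried Wnt1-cre, which is active in neural crest progenitors, and a Rosa26 TdTomato/+ reporter, on which the cells were sorted. Whether a library was made from 1 embryo or from a pool is not stated, so p-values measure the spread between these libraries. Ehmt1 and Ehmt2 encode GLP and G9a, the paired enzymes that write mono- and dimethylation on histone H3 lysine 9, a mark of silent genes.

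P450 enzymes hold a haem group and use molecular oxygen to hydroxylate small lipophilic molecules. Families 1 to 3 are best known for clearing drugs and foreign compounds in the liver, family 4 for hydroxylating fatty acids and eicosanoids, and the higher-numbered families for making and breaking down steroids, bile acids and vitamin D. Most P450s sit in the endoplasmic reticulum and take electrons from the reductase Por, and a few sit in mitochondria and take them from ferredoxin. Outside the liver and the steroid-making glands most family members are silent.

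Library totals lay between 23414466 and 44538260 counts, and 3 counts, the limit set by a count of 0, were worth 0.0671 to 0.135 CPM (counts scaled by library size and TMM). Ehmt2 averaged 128 ± 11.3 CPM in DKO and 355 ± 7.13 CPM in controls, and Ehmt1 averaged 148 ± 18.2 and 259 ± 8.92 CPM (± SD, n = 3 per group). All 15 markers of arch crest and its mesenchyme were tested, with 0 called, and summed to 2196 to 2649 CPM in DKO and 2507 to 2951 CPM in controls. The 6 neuron markers summed to 775 to 801 CPM in DKO and 805 to 967 CPM in controls (1 lower), and the 5 glia markers to 174 to 198 and 174 to 226 CPM (0 called). The 6 erythroid markers, mostly globins, spanned 13.4 to 219.5 CPM over the DKO libraries, with the highest sum in DKO replicate 3, and 68.0 to 121 CPM over the control libraries. Markers of epithelium, immune cells, muscle and steroidogenic cells overlapped between the groups in their summed level, with 0 called.

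Few of the 90 genes were expressed in arch crest, and those that were mostly act on fatty acids (9 genes) and sterols (4 genes). A mean of at least 1 CPM in at least 1 group, the level taken here as expressed, was reached by 17 genes, or 18.9%, and 6 genes reached 10 CPM. The fatty acid genes Cyp4f15 (4.56 CPM in DKO, 0.635 CPM in controls) and Cyp2u1 (1.15 and 0.946 CPM) reached 1 CPM only in DKO. Cyp27a1 reached 10 CPM only in DKO (14.9 and 8.29 CPM). A further 5 genes stayed under 1 CPM in both groups but passed the filter on low counts (filterByExpr), so 22 were tested. Another 35 had counts below the filter, with a median of 3 counts over all 6 libraries together, and 33 had no count in any library. The 6 genes above 10 CPM held 72.8% of the summed P450 level and the 22 tested genes 99.4%. Of the tested genes, 19 passed the filter's level in all 3 control libraries, 2 passed it in all 3 DKO libraries but not in all controls (Cyp4x1 and Cyp2j13), and 1 passed it in all 3 libraries of neither group (Cyp4f39).

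**Figure D1:**
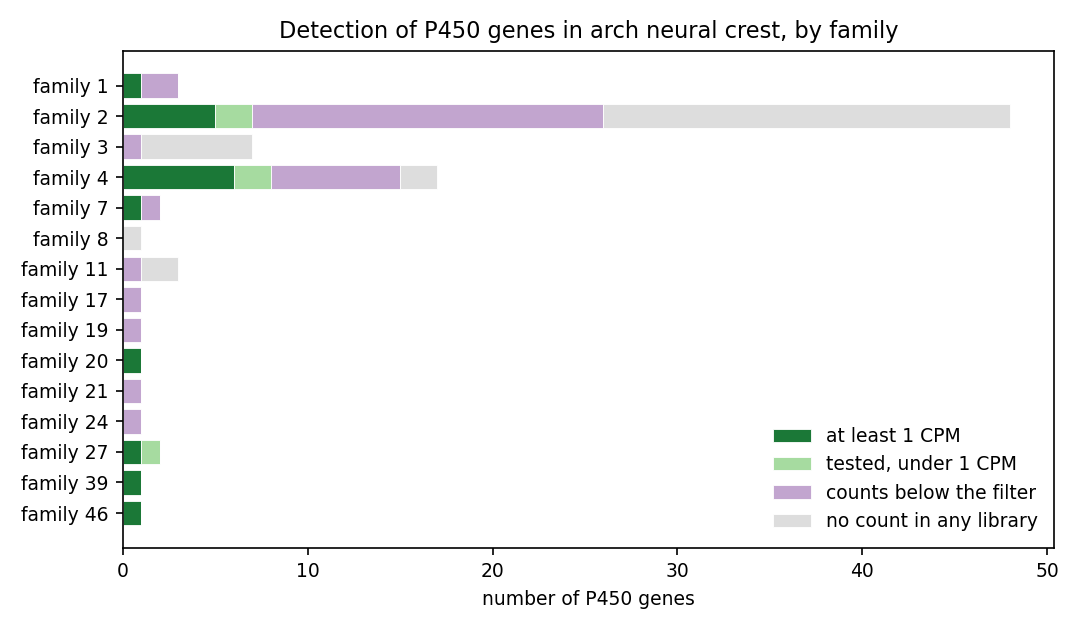
Number of P450 genes in each family (horizontal bars), split by whether they reached 1 CPM in at least 1 group, were tested below that level, had counts below the filter or had no count in any library. Family 2, with 48 genes, held 22 with no count and 5 that reached 1 CPM, and family 4, with 17 genes, held 2 and 6.

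The families that dominate the adult liver were close to silent. The Cyp3a genes, which carry much of hepatic drug clearance, had 2 counts in all over 7 genes and 6 libraries, 1 in DKO replicate 1 and 1 in DKO replicate 2. The 15 Cyp2c genes had 3, 0 and 3 counts in DKO and 1, 1 and 3 counts in control libraries. The 5 Cyp2b genes had 0 counts in each DKO library and 1 count in each control library, and the 4 Cyp2a genes had 2, 3 and 2 counts in DKO and 3, 0 and 0 in control libraries. Cyp1a1 and Cyp1a2, the classical targets of the aryl hydrocarbon receptor, together had 2, 1 and 4 counts in DKO and 2, 0 and 2 in control libraries. In each of these subfamilies the groups differed by a few counts at most, which this depth cannot resolve. Of the 6 hepatocyte markers, the defining gene Alb stood at 0.0894 to 0.269 CPM in DKO and 0.0449 to 0.134 CPM in controls, and Serpina1a had no count. Not all of these markers were so low. Ttr averaged 7.71 CPM in DKO and 15.4 CPM in controls, and Apoa1 0.525 and 0.436 CPM. Afp averaged 0.362 and 0.0149 CPM, and Fgb 0.0164 and 0 CPM.

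The steroid-making enzymes were also near the limit of detection. Cyp11a1, which starts steroid synthesis in mitochondria, had 5, 8 and 1 counts in DKO and 8, 1 and 2 in control libraries. Cyp17a1 had 2 counts in all, Cyp21a1 1 count, and Cyp11b1 and Cyp11b2 none. Cyp24a1, which breaks down active vitamin D, had 4 counts in DKO replicate 3 and 2 in control replicate 1, and none elsewhere. Cyp8b1, which sets the kind of bile acid made in liver, had no count.

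Levels of different genes were compared per kilobase of annotated exon, over all 6 libraries. Cyp20a1, a widely expressed P450 with no settled substrate, led at 10.01 CPM per kilobase. Cyp39a1, an oxysterol hydroxylase of the bile acid pathway, followed at 8.91. The next were Cyp4f16 at 5.43, Cyp27a1 at 5.34, Cyp4f17 at 5.10 and the arachidonic acid epoxygenase gene Cyp2j6 at 4.80 CPM per kilobase. A gap separated these 6 from the next 6, which lay between 1.09 and 1.45 CPM per kilobase: Cyp1b1, Cyp7b1, Cyp2d22, Cyp2s1, Cyp4f15 and Cyp46a1. The lowest of the 22 tested was Cyp2j13 at 0.0751 CPM per kilobase. Both leading genes were steady, with Cyp20a1 at 21.7, 21.3 and 23.7 CPM in DKO and 21.9, 22.9 and 25.8 CPM in controls, and Cyp39a1 at 29.5, 28.8 and 26.1 CPM in DKO and 25.3, 25.7 and 27.8 CPM in controls.

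**Figure D2:**
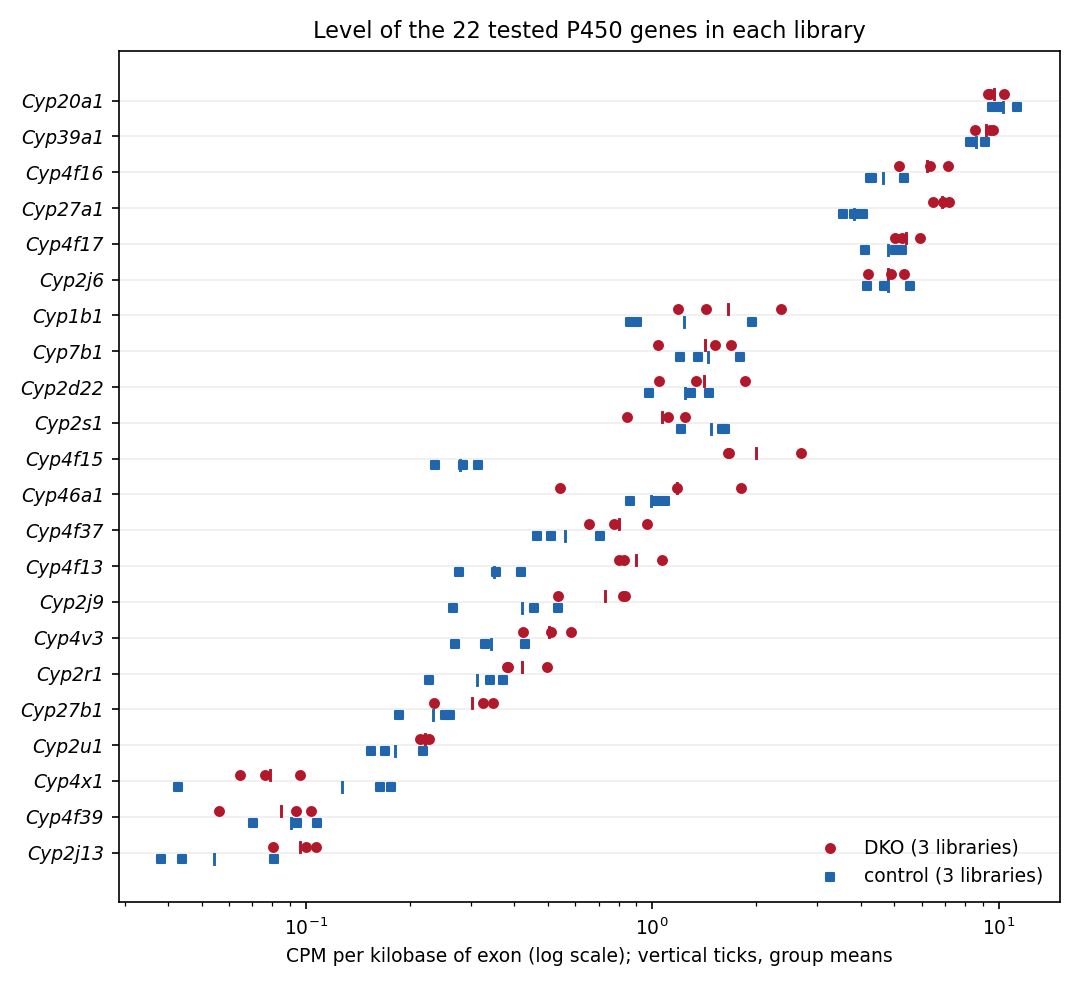
Level of each of the 22 tested P450 genes in CPM per kilobase of exon (log scale), with 1 point per library for DKO (circles, upper row of each gene) and control (squares, lower row) and vertical ticks at the group means. The points of Cyp27a1, Cyp4f15, Cyp4f13 and Cyp2r1 do not overlap between the groups, and on the log scale the largest distance between the means is that of Cyp4f15, at 2.00 in DKO and 0.278 in control libraries.

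Against the control libraries, 3 P450 genes rose in DKO crest and 0 fell: the mitochondrial sterol hydroxylase gene Cyp27a1, and Cyp4f15 and Cyp4f13 of the fatty acid hydroxylase cluster. They rose 1.80-fold, 7.07-fold and 2.56-fold. In RNA from a sorted population, more cells of a kind and more RNA per cell cannot be told apart. Calls come from edgeR's robust quasi-likelihood fit over all 14555 tested genes, at a Benjamini-Hochberg adjusted p below 0.05, and 3.01% of all tested genes were called by it, 2.19% higher and 0.818% lower in DKO. Among the 22 tested P450 genes 13.6% were called. The median log2 fold change was 0.32 over the 22 genes and -0.01 over all tested genes. Of the 22 values 17, or 77.3%, were above 0, against 48.8% of all tested genes. At an unadjusted p below 0.05 by edgeR there were 5 higher and 1 lower. The share of all tested genes at that limit was not counted, so these 2 counts are not read as a result. The groups did not overlap for 4 of the 22 genes, or 18.2%, against 27.2% of all tested genes, and in all 4 the DKO libraries were above, against 14.5% of all tested genes. All 90 genes together summed to 162, 182 and 156 CPM in DKO libraries and 154, 137 and 133 CPM in controls, and did not overlap. Without the 3 called genes the sums overlapped, at 141, 158 and 130.3 CPM in DKO and 143, 126 and 123 CPM in controls.

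**Figure D3:**
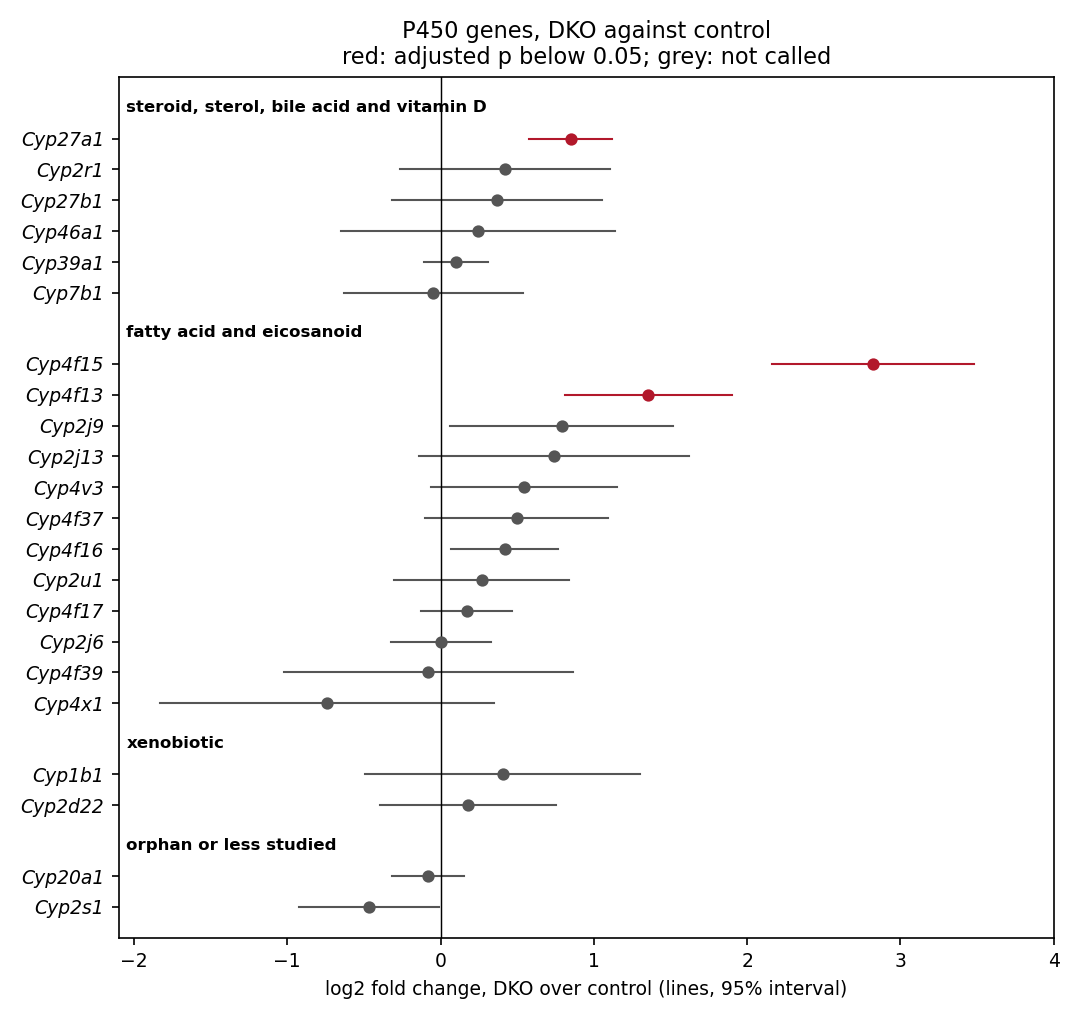
Log2 fold change of DKO over control for the 22 tested P450 genes, grouped by role, with 95% intervals from the edgeR fit (lines). Red marks the 3 genes called at an adjusted p below 0.05, Cyp27a1 at 0.85, Cyp4f15 at 2.82 and Cyp4f13 at 1.36, and the other 19 are grey.

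Among the 15 genes for steroids, sterols, bile acids and vitamin D, 6 were tested, and 1 rose and 0 fell. Cyp27a1 hydroxylates the side chain of cholesterol and of bile acid intermediates. It measured 14.1, 15.03 and 15.6 CPM in DKO replicates 1 to 3 and 8.30, 8.84 and 7.73 CPM in control replicates 1 to 3. Each group was tight, and the lowest DKO library stood well above the highest control library. The means were 14.9 ± 0.761 CPM in DKO and 8.29 ± 0.557 CPM in controls (± SD, n = 3 per group), a log2 fold change of 0.85 (standard error 0.12; adjusted p by edgeR = 0.00927). Cyp27a1 lies on chromosome 1, 74713148 to 74737897, and its exons shared no stretch of 50 bases with transcripts of other genes. Of 12 tested genes starting within 250 kb of it, 0 were called, with log2 fold changes from -0.60 (Wnt10a) to 0.34 (Ihh).

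The other tested sterol and vitamin D genes were not called. The 14 genes of this role other than Cyp27a1 summed to 36.8, 39.2 and 36.1 CPM in DKO and 34.3, 32.5 and 35.4 CPM in controls, with every DKO library slightly above every control. Cyp39a1 had a log2 fold change of 0.10 with a 95% interval from -0.11 to 0.31. Cyp7b1, which hydroxylates oxysterols, averaged 3.07 ± 0.724 CPM in DKO and 3.14 ± 0.669 CPM in controls (± SD, n = 3 per group), with a 95% interval of its log2 fold change from -0.63 to 0.54. Cyp46a1, the cholesterol hydroxylase of neurons, measured 1.78, 3.88 and 5.95 CPM in DKO and 3.38, 2.83 and 3.59 CPM in controls. Its DKO libraries spread far more widely than its controls and lay on both sides of them, while the summed neuron markers of the same DKO libraries were 796, 775 and 801 CPM. Cyp2r1, which performs the first hydroxylation of vitamin D, measured 0.808, 1.05 and 0.805 CPM in DKO and 0.783, 0.718 and 0.479 CPM in controls. These groups just failed to overlap, and the gene was not called (log2 fold change 0.42, SE 0.30, edgeR adjusted p = 0.454). Cyp27b1, which makes the active form of vitamin D, averaged 0.777 ± 0.152 CPM in DKO and 0.60 ± 0.106 CPM in controls (± SD, n = 3 per group) and overlapped.

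Among the 22 tested P450 genes, the largest rise was in the Cyp4f cluster on chromosome 17. Of 25 genes for fatty acids and eicosanoids, 12 were tested, and 2 rose and 0 fell. Cyp4f15 measured 3.80, 3.77 and 6.12 CPM in DKO replicates 1 to 3 and 0.716, 0.538 and 0.649 CPM in control replicates 1 to 3. Every DKO library was several times above every control library, and DKO replicate 3 was the highest. The means were 4.56 ± 1.35 CPM in DKO and 0.635 ± 0.0896 CPM in controls (± SD, n = 3 per group), a log2 fold change of 2.82 (SE 0.29; adjusted p by edgeR = 0.00231). The gene lies on chromosome 17, 32685631 to 32703352 (plus strand). In raw counts its values were 141, 165 and 274 in DKO and 32, 12 and 19 in control libraries.

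Cyp4f13, at 32924688 to 32947415 of chromosome 17, starts 239.1 kb from Cyp4f15 and is read from the other strand. It measured 3.56, 4.75 and 3.69 CPM in DKO and 1.86, 1.57 and 1.23 CPM in controls. The groups did not overlap, with DKO replicate 2 the highest. The log2 fold change was 1.36 (SE 0.24; adjusted p by edgeR = 0.024). The call of Cyp4f13 ended without any 1 library other than DKO replicate 3, with adjusted p between 0.0573 and 0.0955 and log2 fold changes from 1.21 to 1.53, whereas those of Cyp27a1 and Cyp4f15 held without each of the 6 libraries. Of the 50-base stretches in their annotated transcripts, 2.28% in Cyp4f15 and 1.11% in Cyp4f13 also occur in other genes, chiefly Cyp4f14. Cyp4f14 itself had 1 count over the DKO and 2 counts over the control libraries.

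The tested genes of the cluster that were not called lie on the far side of Cyp4f15 from Cyp4f13. Cyp4f16 measured 19.5, 21.9 and 15.8 CPM in DKO and 16.4, 13.2 and 13.1 CPM in controls, overlapping by 1 library, with a log2 fold change of 0.42 (SE 0.15; adjusted p by edgeR = 0.172). Cyp4f17 averaged 17.3 ± 1.53 CPM in DKO and 15.4 ± 1.97 CPM in controls, and Cyp4f37 averaged 2.31 ± 0.448 and 1.62 ± 0.368 CPM (± SD, n = 3 per group). Cyp4f39 had a log2 fold change of -0.08 with an interval from -1.02 to 0.86. Cyp4f16 and Cyp4f37 share 17.4% and 19.7% of their 50-base stretches with other genes, chiefly each other, so their separate counts are uncertain. Cyp4f40, between Cyp4f37 and Cyp4f15, had 6 counts over the DKO and 2 over the control libraries and was not tested.

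Between Cyp4f15 and Cyp4f13 and just beyond lie 8 tested zinc-finger genes. None of these was called, with log2 fold changes from -0.08 (Zfp871) to 0.40 (Zfp799, adjusted p = 0.0743), and 5 of the 8 had DKO libraries above all controls, as did 14.5% of all tested genes. The cluster is on the chromosome of Ehmt2. Cyp4f13 and Cyp4f15 start 1.97 and 2.21 Mb from it, so an effect of the floxed Ehmt2 allele's surrounding DNA and an effect of losing the enzymes cannot be told apart at this locus. Within 3 Mb of Ehmt2, 4 of 142 tested genes were higher and 0 lower, or 2.82%, and 2 of 136 (1.47%) when the P450 genes are left out. Of all tested genes 3.01% were called, 2.19% higher. In the same window 27.5% of tested genes had groups that did not overlap in either direction, against 27.2% of all tested genes. The share with DKO libraries above all controls was not counted for this window.

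**Figure D4:**
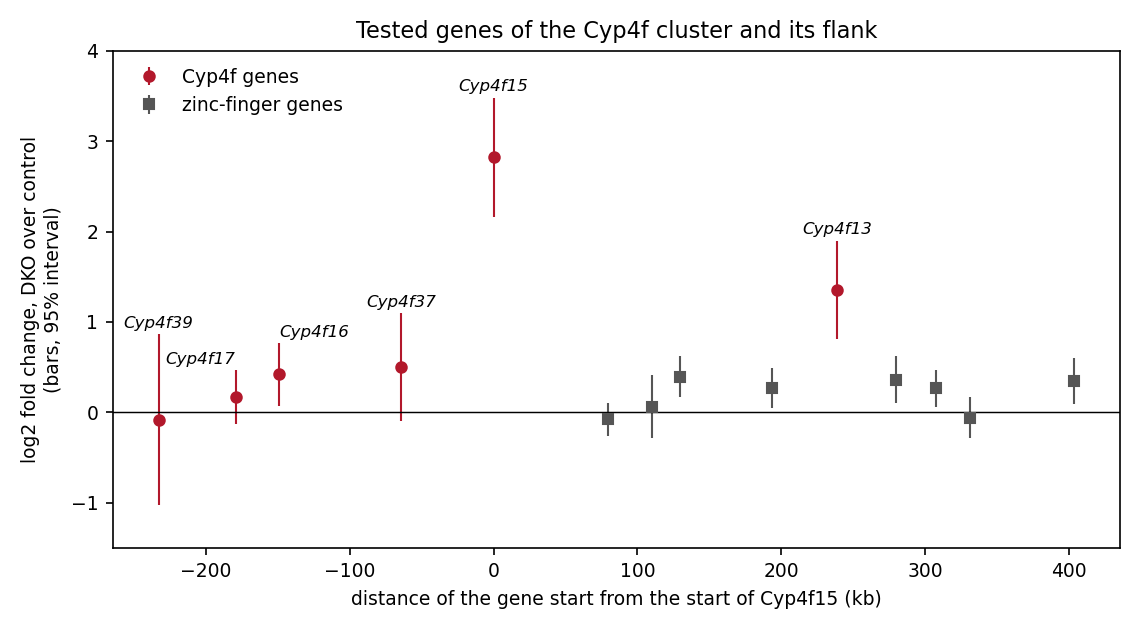
Log2 fold change of DKO over control (points, with bars for the 95% interval) for the tested genes of the Cyp4f cluster and its flank, against the distance of each gene's start from that of Cyp4f15 in kb. Cyp4f15 at 2.82 and Cyp4f13 at 1.36 stand above their neighbours, while the 8 zinc-finger genes (grey squares) lie between -0.08 and 0.40.

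The promoter windows of the 3 genes that rose are shown beside that of Cyp4f16, the most abundant uncalled gene of the cluster, to set genes that rose against a neighbour that was not called. Each runs from 250 bases before to 50 bases after a RefSeq transcript start on GRCm38.p6, read along the gene's strand, and capitals mark the CCAAT box on either strand (CCAAT or ATTGG). The windows are chr1:74713285-74713584 (plus strand) for Cyp27a1, chr17:32685409-32685708 (plus) for Cyp4f15, chr17:32947312-32947611 (minus) for Cyp4f13 and chr17:32536307-32536606 (plus) for Cyp4f16.
Cyp27a1: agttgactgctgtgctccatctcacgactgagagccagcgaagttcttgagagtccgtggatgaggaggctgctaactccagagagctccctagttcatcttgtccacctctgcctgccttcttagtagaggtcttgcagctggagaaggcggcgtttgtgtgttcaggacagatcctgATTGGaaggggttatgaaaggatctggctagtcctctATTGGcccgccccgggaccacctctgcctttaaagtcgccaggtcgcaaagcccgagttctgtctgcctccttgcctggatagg
Cyp4f15: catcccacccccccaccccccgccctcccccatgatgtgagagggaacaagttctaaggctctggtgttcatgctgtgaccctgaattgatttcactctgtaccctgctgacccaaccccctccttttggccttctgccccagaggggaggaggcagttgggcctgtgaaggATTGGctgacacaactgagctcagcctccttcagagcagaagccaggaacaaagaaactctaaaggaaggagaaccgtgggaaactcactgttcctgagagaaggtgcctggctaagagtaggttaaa
Cyp4f13: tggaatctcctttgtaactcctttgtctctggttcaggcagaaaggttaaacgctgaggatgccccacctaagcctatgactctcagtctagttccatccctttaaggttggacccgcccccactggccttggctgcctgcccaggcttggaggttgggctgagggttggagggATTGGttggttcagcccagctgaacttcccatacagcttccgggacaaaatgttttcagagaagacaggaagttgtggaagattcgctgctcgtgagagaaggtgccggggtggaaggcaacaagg
Cyp4f16: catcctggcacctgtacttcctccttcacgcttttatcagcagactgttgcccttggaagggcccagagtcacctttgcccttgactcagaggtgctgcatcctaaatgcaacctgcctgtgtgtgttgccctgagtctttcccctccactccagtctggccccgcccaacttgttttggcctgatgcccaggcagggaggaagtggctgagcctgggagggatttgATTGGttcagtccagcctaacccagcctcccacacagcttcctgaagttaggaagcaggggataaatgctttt

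Each of the 4 windows held the box as ATTGG, 78 bases before the window's transcript start in Cyp4f15, 76 in Cyp4f13, 23 in Cyp4f16 and both 71 and 34 in Cyp27a1. The Cyp27a1 window, from 74713285, lies wholly inside the gene's span, which begins at 74713148. Its transcript start is therefore not the first base of that span. The transcript starts of the Cyp4f15, Cyp4f13 and Cyp4f16 windows also lay inside the spans of their genes, though these windows reached outside them. The box thus stood in the genes that rose and in the one that was not called. The box occurred in 37.4% of 32851 promoter windows of the same length, and in 39.1% of the first windows of the 11580 tested genes that had one. CpG dinucleotides numbered 10 in Cyp27a1, 2 in Cyp4f15, 6 in Cyp4f13 and 2 in Cyp4f16, where the median was 7 over all windows and 20 over those of tested genes. All 4 windows thus lay below the median of tested genes.

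Promoter windows were also set against how each P450 gene was detected. RefSeq windows were matched for 16 of the 22 tested genes, 28 of the 35 below the filter and 26 of the 33 with no count, and the first listed was taken for each gene. The median CpG number was 8 in the tested P450 genes, 2.5 in those below the filter and 1.5 in those with no count. The tested P450 genes were thus well below the median of 20 over all tested genes. The TATAAA motif, searched on both strands, was in 0 of 16, 14 of 28 and 14 of 26 windows, against 13.6% of all windows and 7.26% of those of tested genes. The nuclear receptor half-site AGGTCA was in 0 of 16, 6 of 28 and 13 of 26, against 16.3% of all windows and 11.9% of those of tested genes. The core bound by the aryl hydrocarbon receptor, GCGTG, was in 9 of 16, 5 of 28 and 1 of 26, against 32.4% of all windows and 50.6% of those of tested genes, so its share in the tested P450 genes was close to that of tested genes at large. None of the 4 motifs contains another. A match is a string of letters and was not read as a bound site, and these shares were not tested.

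**Figure D5:**
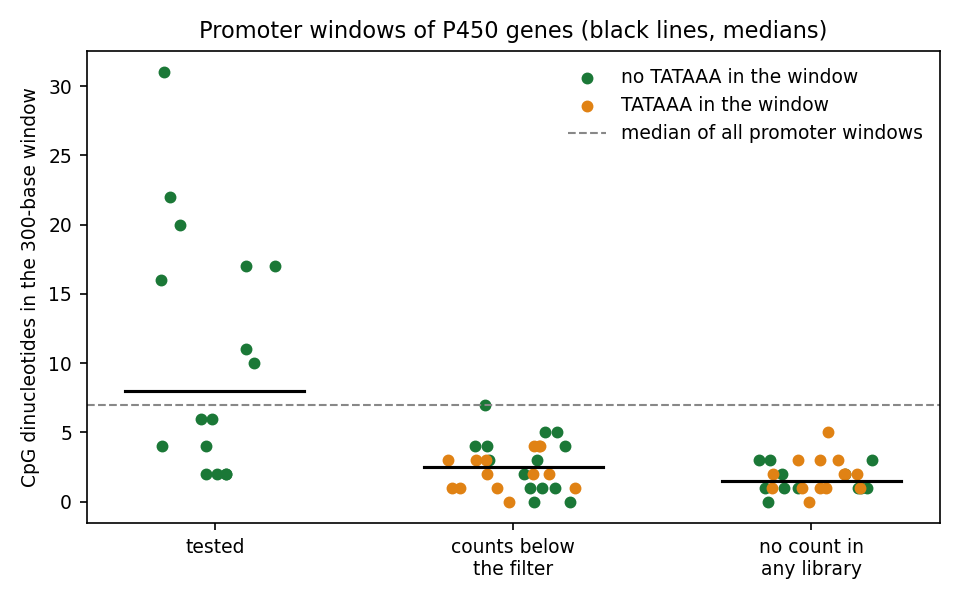
CpG dinucleotides in the promoter window of each P450 gene (points, spread sideways for sight), by whether the gene was tested, had counts below the filter or had no count; black lines are medians, the dashed line the median of all windows, and orange marks windows with TATAAA. The tested genes reach from 2 to 31, those with no count from 0 to 5, and 0 of the 16 tested genes are orange. The median over the windows of all tested genes, 20, is not drawn.

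The other fatty acid genes were not called. Cyp2j6, the most abundant of the epoxygenases, averaged 17.3 ± 2.10 CPM in DKO and 17.3 ± 2.53 CPM in controls (± SD, n = 3 per group), with a 95% interval of its log2 fold change from -0.33 to 0.33. Cyp2j9 measured 2.75, 2.79 and 1.79 CPM in DKO and 1.79, 1.53 and 0.889 CPM in controls, with the lowest DKO library at the level of the highest control. Its log2 fold change was 0.79 (SE 0.32; adjusted p by edgeR = 0.207). Cyp4v3, whose human counterpart CYP4V2 is mutated in an inherited retinal dystrophy, averaged 1.92 ± 0.304 CPM in DKO and 1.30 ± 0.307 CPM in controls. Cyp2u1, a long-chain fatty acid hydroxylase, averaged 1.15 ± 0.0353 and 0.946 ± 0.174 CPM (± SD, n = 3 per group). Cyp4x1 (0.33 ± 0.0671 and 0.534 ± 0.308 CPM) and Cyp2j13 (0.45 ± 0.0649 and 0.255 ± 0.109 CPM) were lower still and overlapped. Without Cyp4f15 and Cyp4f13, the 23 other genes of this role summed to 63.2, 70.4 and 54.9 CPM in DKO and 61.3, 51.7 and 47.0 CPM in controls, which overlapped.

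Of 47 genes of the foreign-compound families, 2 were tested and 0 were called. Cyp1b1, which also metabolises oestrogens and retinoids, measured 8.33, 13.7 and 6.93 CPM in DKO and 11.4, 5.29 and 5.02 CPM in controls. The 2 highest libraries, DKO replicate 2 and control replicate 1, belonged to different groups, and the 95% interval of its log2 fold change ran from -0.49 to 1.30. Cyp2d22 measured 5.23, 7.24 and 4.09 CPM in DKO and 5.70, 5.07 and 3.83 CPM in controls, with the same 2 libraries highest. Of 3 genes with no settled role, 2 were tested and 0 were called. Cyp2s1, a P450 of epithelia outside the liver, was the member with the lowest p in the downward direction, at 5.27 ± 1.0 CPM in DKO and 7.29 ± 1.13 CPM in controls (± SD, n = 3 per group). Its log2 fold change of -0.47 (SE 0.20; adjusted p by edgeR = 0.231) was not called, and the groups overlapped. The other, Cyp20a1, had a 95% interval of its log2 fold change from -0.32 to 0.15.

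Of the 35 genes below the filter, 3 had a higher level in each DKO library than in any control library. The share among all genes below the filter was not counted, so the 3 are described for their counts only. Cyp7a1, the rate-limiting enzyme of bile acid synthesis in liver, had 12, 21 and 8 counts in DKO and 1, 0 and 1 in control libraries, a depth-corrected ratio of 16.5 with an exact 95% counting interval from 4.29 to 141. Cyp19a1, the aromatase that makes oestrogens, had 7, 11 and 3 counts in DKO and 1, 0 and 0 in control libraries, a ratio of 16.9 (2.72 to 699). Cyp4a10, a fatty acid hydroxylase gene, had 2, 3 and 1 counts in DKO and none in control libraries. The 5 Cyp4a genes together had 5, 5 and 2 counts in DKO and 0 in each control library, in counts not corrected for depth. Such intervals reflect counting error alone; variation among libraries is outside them.

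With no filter on low counts, Cyp7a1 was called higher (edgeR log2 fold change 3.78, SE 0.79, adjusted p = 0.0349), and Cyp19a1 (adjusted p = 0.10) and Cyp4a10 (adjusted p = 0.235) were not. Cyp7a1 was not called by DESeq2 (adjusted p = 0.0521). Without DKO replicate 3 it passed the filter, through its DKO libraries alone, and its adjusted p there of 0.0174 adds no support. The 6 hepatocyte markers beside these liver genes summed to 7.30 to 9.63 CPM in DKO and 11.1 to 18.7 CPM in controls, most of it Ttr. Ttr measured 5.93, 8.43 and 8.76 CPM in DKO and 17.4, 10.7 and 18.1 CPM in controls, with every DKO library below every control, and missed the threshold (log2 fold change -1.001, SE 0.23, edgeR adjusted p = 0.0627). Afp, called higher, passed the filter only through its DKO libraries, and so was tested only because the groups differed. It had 16, 14 and 15 counts in DKO and 2, 0 and 0 in control libraries, or 0.362 ± 0.0603 CPM in DKO and 0.0149 ± 0.0258 CPM in controls (± SD, n = 3 per group; edgeR adjusted p = 0.0262). The part of such markers in the counts of Cyp7a1 was not tested.

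The endothelial marker gene Tie1 rose as well. The 5 endothelial markers summed to 24.5 to 27.2 CPM in DKO and 12.1 to 16.1 CPM in controls, with 1 called higher (Tie1, edgeR log2 fold change 3.04, adjusted p = 0.000503) and 0 lower. Without Tie1 the other 4 summed to 16.6, 17.9 and 20.003 CPM in DKO and 15.03, 11.3 and 13.4 CPM in controls. Their part in the rises of Cyp27a1, Cyp4f15 and Cyp4f13 was not tested.

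The machinery that P450 enzymes depend on was expressed, and 0 of its tested genes were called. Of 10 redox partners all were tested, with a median log2 fold change of -0.01. The most abundant were Cyb5b, an outer mitochondrial cytochrome, at 194 ± 24.1 CPM in DKO and 249 ± 25.5 CPM in controls, and Pgrmc1, a haem-binding membrane protein gene, at 189 ± 6.52 and 222 ± 19.2 CPM (± SD, n = 3 per group). Both had DKO libraries below all controls (log2 fold changes -0.36 and -0.23, edgeR adjusted p = 0.128 and 0.169), as did Pgrmc2 (-0.13, adjusted p = 0.343). Fdx2 and Fdxr, of the ferredoxin chain, had DKO libraries above all controls (0.14 and 0.33, edgeR adjusted p = 0.417 and 0.167). Fdxr averaged 18.5 CPM in DKO and 14.8 CPM in controls. Fdx1 averaged 13.9 and 12.7 CPM and overlapped. Por, named after its values were seen, averaged 129.5 ± 8.79 CPM in DKO and 141 ± 6.33 CPM in controls and overlapped. Of 13 genes of haem synthesis and breakdown all were tested, led by Hmox2 (log2 fold change 0.02) and Urod (-0.01).

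Of 17 regulators of P450 genes, 12 were tested. The most abundant, Rxra and Arnt, which pair with many nuclear receptors and with the aryl hydrocarbon receptor, had log2 fold changes of -0.11 and -0.01. The xenobiotic and bile acid receptor genes Nr1i2, Nr1i3 and Nr1h4, the orphan nuclear receptor gene Nr0b2 and the liver factor Hnf4a were not tested, with group means of at most 0.0393 CPM. Nr1h3, the oxysterol receptor LXR alpha and named after its values were seen, measured 1.43, 1.78 and 1.94 CPM in DKO and 0.828, 0.763 and 0.82 CPM in controls. These groups did not overlap, and the gene just missed the threshold (log2 fold change 1.09, SE 0.24, edgeR adjusted p = 0.0552).

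Of 4 epoxide hydrolase genes, which open the epoxides that some P450s form, Ephx2 was the most abundant. It measured 3.64, 5.32 and 2.10 CPM in DKO and 1.61, 1.08 and 0.957 CPM in controls, without overlap (log2 fold change 1.58, SE 0.38, edgeR adjusted p = 0.0662). Ephx1 had a log2 fold change of 0.14. Of 12 steroid partner genes 5 were tested, led by Stard3 (log2 fold change 0.08) and Srd5a1 (0.17). Of the P450 genes outside the symbol rule, Cyp51, which removes a methyl group in cholesterol synthesis, averaged 214 ± 9.32 CPM in DKO and 240.4 ± 15.8 CPM in controls (± SD, n = 3 per group), higher in CPM than any of the 90. It was not called (log2 fold change -0.17, edgeR adjusted p = 0.254), nor was the prostacyclin synthase gene Ptgis (-0.35, adjusted p = 0.14).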

How the data were processed

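RNA was counted in 3 DKO and 3 control libraries (table columns headed DKO and WT). The values the authors deposited are raw whole-number counts, 1 row per gene symbol. Build mm10 and the tools STAR 2.7.10a, Trim Galore and Picard are named in the submitters' processing notes. Which program counted the reads, with what annotation and strand setting, is not given in the sources used here. Reads of near-identical genes may have been shared or dropped.

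All rows entered 1 fit in edgeR 4.0.16 (R 4.3.3). Low genes were removed by filterByExpr, at a minimum count of 10 and a total of 15, and the rest were scaled by TMM and tested with the robust quasi-likelihood test (2-sided; group as the only term). The script was tested on simulated data. The SE is the log2 fold change divided by the root of F, and intervals use the total degrees of freedom of the fit. CPM are TMM-scaled. Coordinates come from RefSeq on GRCm38.p6 (all 90 genes matched), and exon lengths and transcripts from GENCODE M21. The named P450 genes are those called, those whose groups do not overlap, the 12 highest per kilobase and the 2 most abundant of each tested family; of partner lists, those called or else the 2 most abundant. Others described were chosen after their values were seen. The members and lists were chosen with earlier results of these data known.

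Alternatives were no filter, at least 1 CPM in 3 libraries, RLE (DESeq2-style) factors, library size only, DESeq2 1.42.0, limma-voom (limma 3.58.1), a replicate block, and each library left out.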

Additional observations from a re-analysis of the deposited data

How the results depend on the processing

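The count of P450 genes higher in DKO was 3 in the reported fit and 3 to 4 under every setting that kept all 6 libraries, with 4 only when no filter was used (Cyp7a1 added), and 2 to 4 with 1 library left out, where the 4 again includes Cyp7a1, which passed the filter through its DKO libraries alone. The count lower was 0 throughout. Cyp27a1 and Cyp4f15 were called in all 13 alternatives, with adjusted p of at most 0.0487 and 0.0211. Cyp4f13 was called in 8 of 13, and its losses were the 5 library removals given above. The cause was not tested. The number of P450 genes taken as expressed was 17, and 20 with a limit of 0.5 CPM or 22 by the filter alone.

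Over all genes, 319 were higher and 119 lower. DESeq2 gave 642 and 479, a replicate block 423 and 196, and library size only 416 and 80. Leaving out DKO replicate 3 gave 597 higher and 509 lower. Leaving out any other library gave 110 to 187 higher and 21 to 59 lower. In log2 CPM of all tested genes, DKO replicate 3 correlated at 0.9839 with DKO replicate 2 and 0.9890 with DKO replicate 1. With control replicate 3 it correlated at 0.9895. Library size only moved the median log2 fold change of all genes to 0.07. Samples of equal number had deviations from their group means that correlated at -0.01, 0.00 and 0.42, and DKO replicate 2 with control replicate 1 at 0.51. Deviations within a group are tied to each other, so these values cannot settle whether equal numbers share a litter or day. The labels do not state it. The replicate block left 3 P450 genes higher and 0 lower.

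Signs changed for 5 P450 genes, none of them called. Cyp2j6 (0.00052 as reported) was -0.0045 with no filter, -0.00013 with RLE factors, -0.0038 by DESeq2 and -0.025 by limma-voom. Cyp7b1 was 0.027 with library size only. With 1 library left out, the log2 fold changes ran from -0.093 to 0.13 for Cyp2j6, from -0.067 to 0.35 for Cyp2d22, from -0.20 to 0.59 for Cyp46a1, from -0.26 to 0.15 for Cyp4f39 and from -0.19 to 0.15 for Cyp7b1. The cause was not tested. At these depths genes with a few counts per library, which include all of the Cyp2c and Cyp3a genes, cannot be compared between the groups.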
